A study of Mus musculus with 2 samples.

Results

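The Hox cluster genes described here are 38 genes of the DNase I hypersensitivity table whose names begin with Hoxa, Hoxb, Hoxc or Hoxd followed by a number, out of 22605 genes in all. They are listed in 72 transcript rows, and 17 of the genes have several rows. Each gene is represented by the row that touches the most windows, unless another row is named. They comprise 10 genes of the HoxA cluster, 10 of HoxB, 9 of HoxC and 9 of HoxD. The data come from a DHS-seq library of M1 cells grown without IL-6 and another of cells kept with IL-6 for 4 to 5 days, 1 library per condition. DHS-seq reads the small fragments that a brief DNase I digestion of nuclei releases, mostly where chromatin is accessible to the enzyme. M1 is an established mouse myeloid leukemia line that grows as immature progenitor cells and moves toward macrophages in the presence of IL-6, a cytokine of inflammation. Both libraries came from this line at passages 15 to 18, and no separate cultures were named. A library without IL-6 and a library with IL-6 leave no spread between replicates, so no difference below has a replicate check and no p-value is given. In a bulk library, fewer cells with an open site and less opening per cell cannot be told apart.

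Hox genes encode homeodomain transcription factors that give cells their position along the body axis. Within each cluster the genes lie in the order in which they are used, from the anterior genes with low numbers to the posterior genes with high numbers, and genes of the same number in different clusters are paralogs. In blood, progenitor cells use a few Hox genes, above all of the HoxA cluster. Hoxa9, together with its cofactor Meis1, is well known for holding myeloid progenitors in an immature state, and its level normally falls as they mature. Mll1 and its partners keep Hox genes active, and Polycomb proteins keep unused Hox genes silent.

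The table gives, for each transcript, the mean number of reads over the 700-base windows that its coding span touches. A read of the IL-6 library counted as 1.04 reads in the deposited means, and means for IL-6-treated cells below carry this scaling, while read numbers are given unscaled. Intervals are 95% intervals that cover counting error only and compare the libraries, not the conditions. A distinct set of windows that cover the coding spans on the autosomes and X held 9115986 reads in untreated and 8557991 reads in IL-6-treated cells, or 7.58 and 7.39 reads per window over 1202246 windows. As a check of the cell type, a list of 15 myeloid genes had a median of 15 reads per window in untreated cells, with 14 genes above the median of all genes. A list of 15 genes of other lineages had a median of 7.5, with 6 genes above it, and no gene of either list was at 0. In IL-6-treated cells the medians were 12.9 for the myeloid list and 11.8 for the other list. There 11 genes of each list were above the median of all genes, so the check hardly separates the lists in that library.

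Positions are on NCBIM37 (mm9). The HoxA genes described here lie on chromosome 6, minus strand, between 52112350 and 52210874, so anterior genes have lower coordinates. HoxB lies on chromosome 11 from 96055630 to 96229570, HoxC on chromosome 15 from 102751534 to 102867274 and HoxD on chromosome 2 from 74506367 to 74603200, all on the plus strand. The sequences below belong to genes named in the results, and no signal value was computed from them. Hoxa7, Hoxa9 and Hoxc10 are the genes with the strongest signal in untreated cells, and Hoxa4 is a gene with little signal whose promoter also lies within the windows of its row. Each run is 5′ to 3′ on the strand of the gene, in lower case with every CpG dinucleotide in capitals. For Hoxa7 (chr6:52167505-52167754) and Hoxa4 (chr6:52141753-52142002) the run is the 250 bases before the annotated transcription start site. For Hoxc10 (chr15:102797101-102797226) it is the 126 bases of that stretch that lie within the listed windows. For Hoxa9 (chr6:52175901-52176103) it is the first 203 coding bases, from the start codon, which lie in the strongest window that could be solved within a Hox gene.
Hoxa7: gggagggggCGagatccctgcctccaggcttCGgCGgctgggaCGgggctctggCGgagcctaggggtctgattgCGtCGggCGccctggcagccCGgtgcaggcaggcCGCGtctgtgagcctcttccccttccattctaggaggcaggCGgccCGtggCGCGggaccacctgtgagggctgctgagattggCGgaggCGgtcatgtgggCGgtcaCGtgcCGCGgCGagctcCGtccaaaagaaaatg
Hoxa9: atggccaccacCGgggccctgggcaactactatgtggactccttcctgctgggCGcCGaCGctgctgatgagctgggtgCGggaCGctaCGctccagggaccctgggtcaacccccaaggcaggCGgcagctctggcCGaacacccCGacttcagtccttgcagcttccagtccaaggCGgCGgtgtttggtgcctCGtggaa
Hoxc10: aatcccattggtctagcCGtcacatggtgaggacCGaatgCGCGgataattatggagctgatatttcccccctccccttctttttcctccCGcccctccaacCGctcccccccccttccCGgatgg
Hoxa4: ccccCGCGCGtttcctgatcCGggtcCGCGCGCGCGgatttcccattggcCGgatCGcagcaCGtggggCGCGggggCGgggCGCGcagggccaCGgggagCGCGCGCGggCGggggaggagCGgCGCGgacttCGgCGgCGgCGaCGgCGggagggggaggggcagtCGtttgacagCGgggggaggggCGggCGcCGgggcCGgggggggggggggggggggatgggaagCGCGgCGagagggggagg
The promoter of the weakly covered Hoxa4 held more CpGs than that of Hoxa7, with 41 against 23. The median promoter of 71 Hox transcripts held 11 CpGs and that of all 45986 transcripts 9.

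Most Hox genes had little DNase I signal in M1 cells. The 38 genes had a median of 4.67 reads per window without IL-6 and 5.49 with IL-6, against 7.75 and 8.14 over all genes. In untreated cells 7 Hox genes were above the median of all genes, a line that 49.9% of all genes exceeded. In IL-6-treated cells 7 were above it, against 50% of all genes. Most Hox spans are short, and the part of span length in their signal was not tested. Among genes of at most 6 windows 42.7% in untreated and 47.5% in IL-6-treated cells were above the same medians, and their own medians were 6.33 and 7.61 reads per window. Above these medians of short genes were 11 Hox genes in untreated and 9 in IL-6-treated cells. No Hox gene was without reads. The fewest were 6 reads, on Hoxb5 in untreated cells and on Hoxd8 in IL-6-treated cells.

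By the rows of most windows, Hoxa9, Hoxc10 and Hoxa7 stood apart from the other Hox genes in untreated cells. Hoxa9 had 33.0 reads per window (27.6 to 39.1), Hoxc10 had 20.1 (17.0 to 23.8) and Hoxa7 had 19.9 (16.7 to 23.4). The next gene in the order, Hoxc12, had 10.3 (7.02 to 14.7). Of the 37 pairs of neighbors in this order, 2 had separate intervals, Hoxa9 above Hoxc10 and Hoxa7 above Hoxc12. The other 35 genes ranged from 1.75 to 10.3 reads per window with a median of 4.33. Among all genes Hoxa9 was at the 92.4 percentile, Hoxc10 at 84.6 and Hoxa7 at 84.3.

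**Figure D1:**
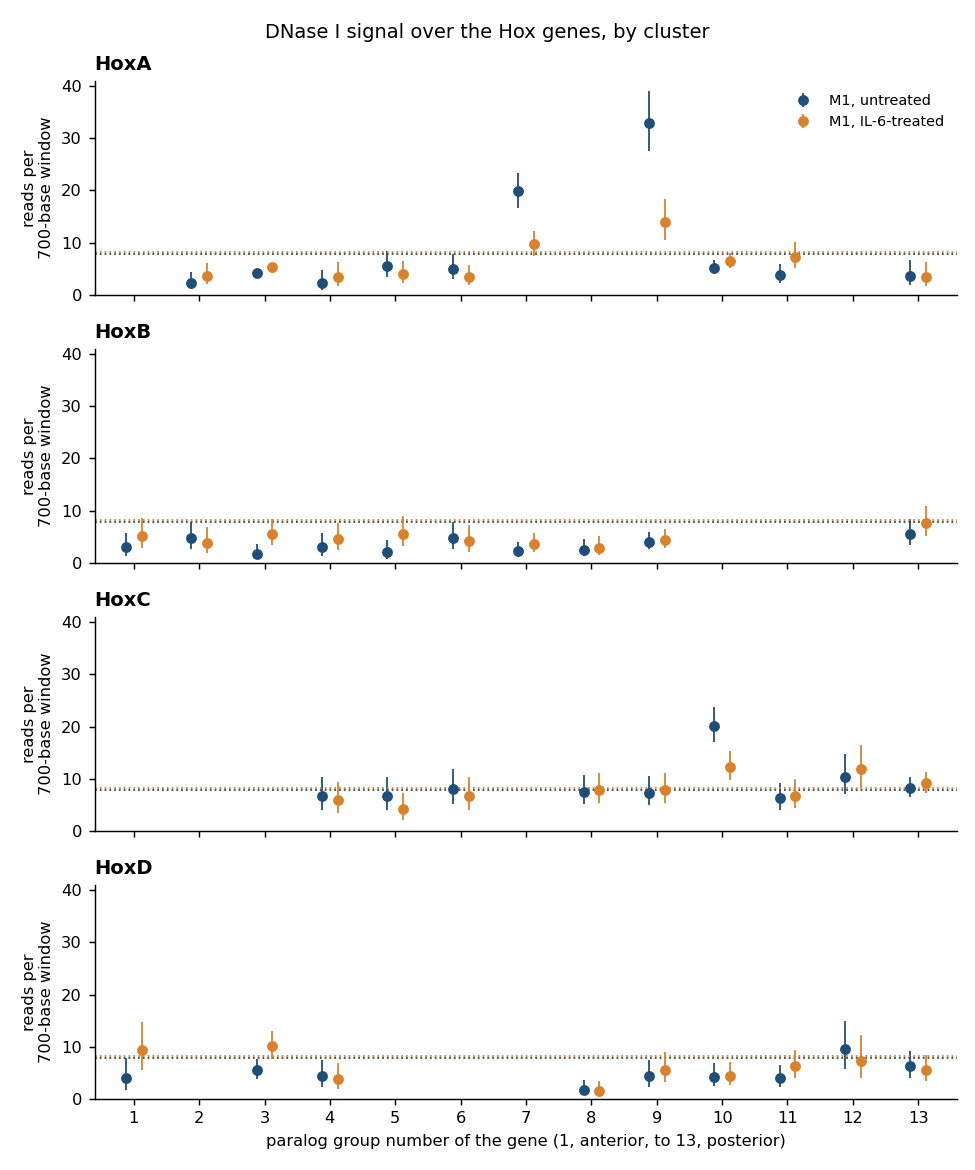
Reads per 700-base window (vertical axis) for each Hox gene against its paralog group number (horizontal axis), 1 panel per cluster, with blue points for untreated and orange points for IL-6-treated M1 cells (scaled as deposited). Bars are 95% exact Poisson intervals, and dotted lines are the medians of all genes (7.75 and 8.14). Rows of most windows are shown, and by these Hoxa7, Hoxa9 and Hoxc10 stand far above the other genes in untreated cells.

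In IL-6-treated cells this separation was no longer seen. Hoxa9 still had the most signal of the 38 genes, with 14 reads per window (10.5 to 18.3). Hoxc10 followed with 12.3 (9.80 to 15.3) and Hoxc12 with 11.8 (8.15 to 16.4). Of the 37 pairs of neighbors in the order of this library, 0 had separate intervals. The order of the genes was partly kept, with a Spearman rho of 0.68 between the libraries over the 38 genes, which share windows in part and have few reads each.

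The signal over Hoxa9, a posterior gene, was concentrated at its start codon end. Its coding span lies on chromosome 6 from 52174243 to 52176103 and touches 4 windows, which held 132 reads in untreated and 54 reads in IL-6-treated cells. Overlapping transcript rows allowed single windows to be solved from their sums and SDs. The window from 52175901 to 52176600, which holds the start codon and the bases just before it, had 74 reads without IL-6 and 25 with it, a ratio of 0.351 (0.213 to 0.559). The adjoining window toward the stop codon had 32 and 8 reads. The remaining windows had between 10 and 16 reads each in untreated and between 9 and 12 in IL-6-treated cells. The larger part of the difference between the libraries lay in the pair of windows at the 5′ part of the gene.

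Hoxa7, a central gene, was represented by a row from 52167028 to 52171635 that reaches upstream of the usual coding span. Its 7 windows held 139 and 65 reads, with between 32 and 53 reads in the strongest window in untreated and between 14 and 22 in IL-6-treated cells. The shorter rows of Hoxa7, with 3 windows over the coding exons, held 36 and 24 reads. Hoxa7 by these rows had 12 reads per window in untreated cells, within the interval of Hoxc12 (7.02 to 14.7). Its separation from the other Hox genes thus rests on the long row. More of the reads of the long row lay upstream of the exons than over them. The ratio of the shorter rows had an interval of 0.395 to 1.19, so the lower value of Hoxa7 in IL-6-treated cells rests on the long row.

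The listed genes next to Hoxa7 had little signal themselves, but the stretch of windows around them held much. Hoxa5 had 22 and 15 reads and Hoxa6 had 20 and 13 reads, on 4 windows each. A long row listed under Hoxa3, of 19 windows from 52150701 to 52164000, spans both genes. Without the windows of Hoxa5 and Hoxa6, its 11 remaining windows held 237 reads in untreated and 75 reads in IL-6-treated cells. This is 21.5 and 7.08 reads per window, a ratio of 0.329 (0.25 to 0.428). The strongest of these windows had at least 53 and at most 102 reads in untreated cells, and at least 14 and at most 28 in IL-6-treated cells. Which of the 11 windows held most of the reads could not be solved. Both Hoxa5 and Hoxa6 were below the mean of the stretch around them in untreated cells, at 5.50 and 5.00 reads per window.

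By the rows of most windows, the other genes of HoxA were below the medians of all genes in both libraries. Hoxa2 had 9 and 14 reads, Hoxa4 had 7 and 10, and Hoxa13, the most posterior gene, had 11 and 10. Hoxa10, the posterior neighbor of Hoxa9, had 62 and 74 reads over a row of 12 windows, or 5.17 and 6.40 reads per window. Its 8 windows outside the 4 of its short row had 43 and 54 reads. Hoxa3 is listed with a row of 55 windows that also crosses Hoxa4 and part of Hoxa2, and that row had 224 and 279 reads. A row of 4 windows over the usual coding exons of Hoxa3 had 41 and 38 reads, or 10.3 and 9.86 reads per window. By this row Hoxa3 was above the medians of all genes in both libraries (7.75 and 8.14). The value of Hoxa3 thus depends on the row, and 48 of the 55 windows of the long row lie outside the 4-window row and Hoxa4.

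**Figure D2:**
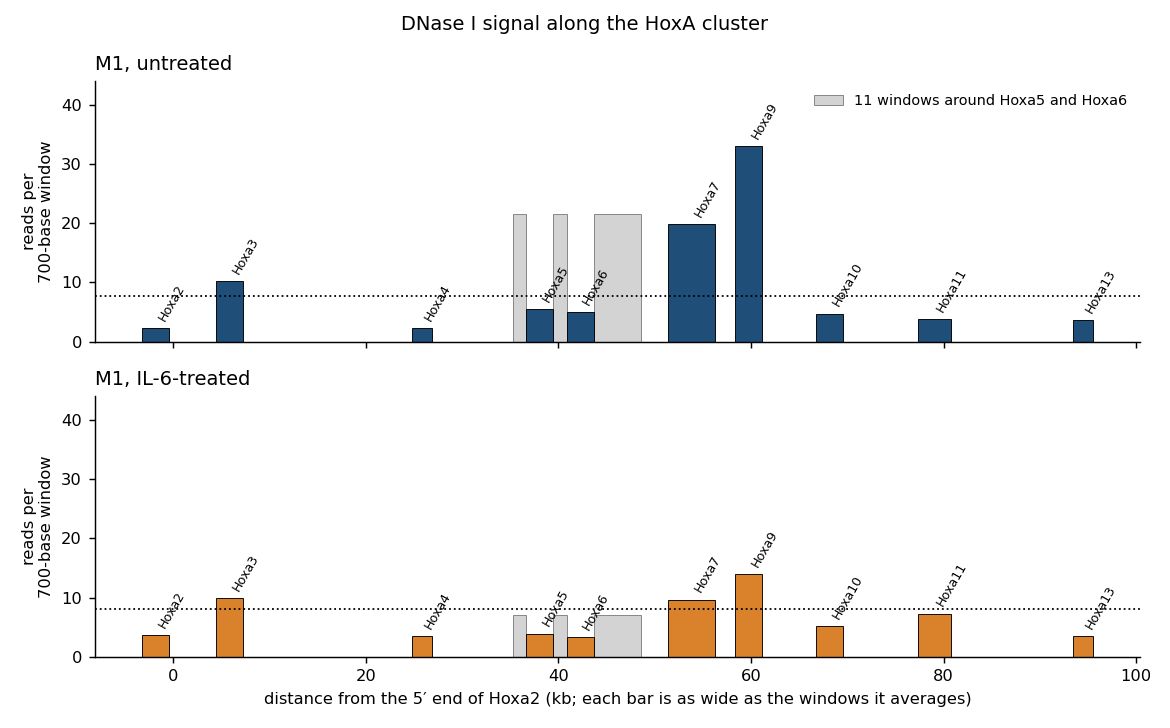
Mean reads per 700-base window (vertical axis) along the HoxA cluster in untreated (top) and IL-6-treated (bottom) M1 cells against the distance from the 5′ end of Hoxa2 in kb (horizontal axis), with bars as wide as the windows they average and the 4-window rows used for Hoxa3 and Hoxa10. Grey bars show the mean of the 11 windows around Hoxa5 and Hoxa6 (21.5 and 7.08), the dotted lines are the medians of all genes, and the tall bars in untreated cells are those of Hoxa7, Hoxa9 and the grey windows.

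HoxC had the highest median of the clusters. Its 9 genes ranged from 6.25 to 20.1 reads per window in untreated and from 4.15 to 12.3 in IL-6-treated cells, with medians of 7.5 and 7.79. Hoxc10, a posterior gene, had 141 and 83 reads on 7 windows, with between 33 and 56 reads in the strongest window in untreated and between 16 and 28 in IL-6-treated cells. Hoxc12 had 31 and 34 reads, Hoxc13 had 74 and 79, Hoxc11 had 25 and 26, Hoxc9 had 29 and 30, and Hoxc8 had 30 in each library. The central genes Hoxc4, Hoxc5 and Hoxc6 had 20, 20 and 24 reads in untreated and 17, 12 and 19 reads in IL-6-treated cells. Apart from Hoxc10, no gene of HoxC had an interval of the ratio that left out 1.

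HoxB and HoxD had the lowest medians in untreated cells. HoxB ranged from 1.75 reads per window (Hoxb3) to 5.50 (Hoxb13) in untreated cells, with a median of 3.0, and from 2.85 to 7.53 in IL-6-treated cells, with a median of 4.41. All 10 genes of HoxB were below the medians of all genes in both libraries. HoxD ranged from 1.75 (Hoxd8) to 9.50 (Hoxd12) in untreated cells, with a median of 4.33. In IL-6-treated cells its median was 5.54, and Hoxd3 and Hoxd1, the most anterior genes of HoxD, had the most signal of the cluster, at 10.0 and 9.34 reads per window. Hoxd12 touches only 2 windows, with 19 and 14 reads. Hoxd8 had 7 and 6 reads on 4 windows.

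The libraries were then compared gene by gene with the scaling of the deposited means. More than 21 reads in either library, with those of the IL-6 library scaled, were present for 19 of the 38 genes, and for 18 without scaling. Among the 19 genes 2, Hoxa7 and Hoxa9, were lower by 2-fold or more in IL-6-treated cells. Over all genes with as many reads, 13.4% were at least 2-fold lower, and 28.6% of those with at most 6 windows. The ratio was 0.425 (0.304 to 0.587) for Hoxa9 and 0.485 (0.356 to 0.656) for Hoxa7, with log2 ratios of -1.23 and -1.04. Hoxc10 was also lower, with a ratio of 0.611 (0.460 to 0.807), so that 3 Hox genes had an interval below 1, against 28.9% of all genes with a read and 18.8% of those with at most 6 windows. These directions hold for the deposited scaling. A factor taken from single strong windows, which moves every log2 ratio up by 1.62, turned all 3 to positive log2 ratios, at 0.58 for Hoxa7, 0.39 for Hoxa9 and 0.91 for Hoxc10.

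With the deposited scaling most strong spans had lower values in the IL-6 library, and the strong Hox genes are among them. Among the 2121 genes with 19 to 34 reads per window in untreated cells, the range of the 3 leading Hox genes, 1876 had a negative log2 ratio, 31.8% were at least 2-fold lower and the median log2 ratio was -0.74. With the factor from strong windows this median was 0.88. In the top decile of genes by summed signal, which includes Hoxa9, 66.3% were at least 2-fold lower and the median was -1.32, or 0.30 with that factor. Relative to this decile Hoxa9 was at a log2 ratio of 0.09. Hoxc10 was in decile 9, where 20.2% were at least 2-fold lower and the median was -0.38, and relative to it Hoxc10 was at -0.33. Hoxa7 was in decile 8 and at -0.93 relative to its median of -0.11. On this scale the interval of 1 Hox gene, Hoxa7, was below 1, and that of Hoxa9 (0.756 to 1.46) held 1. This contrast depends on the deciles, which use the signal of both libraries. The median in untreated cells was 14 reads per window in decile 8 and 45.1 in decile 10. Beside the median of -0.74 for genes with 19 to 34 reads per window in untreated cells, Hoxa9 was at -1.23 and Hoxa7 at -1.04. The signal of untreated cells enters both the level and the ratio, and the part of the strength of a span in its ratio was not tested.

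**Figure D3:**
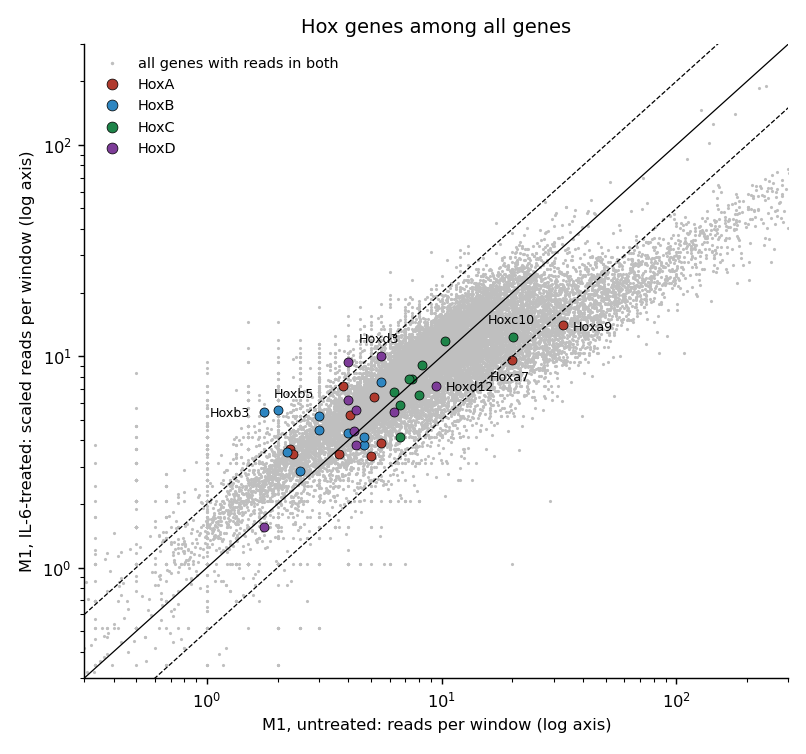
Scaled reads per window in IL-6-treated cells (vertical log axis) against reads per window in untreated cells (horizontal log axis) for 21736 genes with reads in both libraries (grey, of which 218 lie outside the axes) and for the 38 Hox genes colored by cluster. The solid line marks equal values and the dashed lines 2-fold differences, and Hoxa9 lies below and Hoxa7 just below the lower dashed line.

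Shares within a cluster do not depend on the scaling between libraries. Over a set of 94 distinct windows of HoxA, the 11 windows of Hoxa7 and Hoxa9 held 271 of 629 reads in untreated cells, or 43.1% (39.2 to 47.1). In IL-6-treated cells they held 119 of 545 reads, or 21.8% (18.4 to 25.5). The same windows were compared in both libraries, and this set leaves out 10 of the 11 windows around Hoxa5 and Hoxa6. Hoxc10 held 35.8% (31.0 to 40.7) of the reads on 40 distinct windows of HoxC in untreated cells and 25.2% (20.6 to 30.2) in IL-6-treated cells, intervals that do not overlap. The genes were picked for their signal in untreated cells, so the shares are a description. Their part in the same trend of strong spans was not tested.

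With the deposited scaling 23 of the 38 Hox genes had a positive log2 ratio, as did 12615 of all 22605 genes. The factor from strong windows raises the log2 ratio of every gene by 1.62, and with it 33 Hox genes were at least 2-fold higher. The share of all genes past 2-fold with this factor was not counted, so this number shows nothing particular to Hox genes. With the deposited scaling 1 of the 19 Hox genes with more than 21 scaled reads was at least 2-fold higher, the anterior gene Hoxb3. Of all genes with as many reads 1.71% were, and 5.73% of those with at most 6 windows. Hoxb3 had 7 reads in untreated and 21 reads in IL-6-treated cells on 4 windows, a ratio of 3.11 (1.28 to 8.67). These reads pass the filter only when scaled. Without scaling its log2 ratio stayed positive but 0 Hox genes passed the filter and the fold. The interval was above 1 for 5 genes, against 25% of all genes with a read and 8.52% of those with at most 6 windows. Beside Hoxb3 these were Hoxb5 with 6 and 16 reads (2.77, 1.03 to 8.64, but 0.991 to 8.32 without scaling), Hoxa11 with 19 and 35 (1.91, 1.06 to 3.54), Hoxd3 with 33 and 58 (1.82, 1.17 to 2.89) and the long row of Hoxa3 (1.29, 1.08 to 1.55). Hoxd1 had 8 and 18 reads, with a ratio of 2.34 whose interval (0.966 to 6.21) includes 1. The reads behind most of these values are few. Relative to its decile of signal, Hoxd3 was the 1 Hox gene with an interval above 1. The 4-window row of Hoxa3 had a ratio close to 1, with a log2 ratio of -0.05 (interval of the ratio 0.602 to 1.53).

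**Figure D4:**
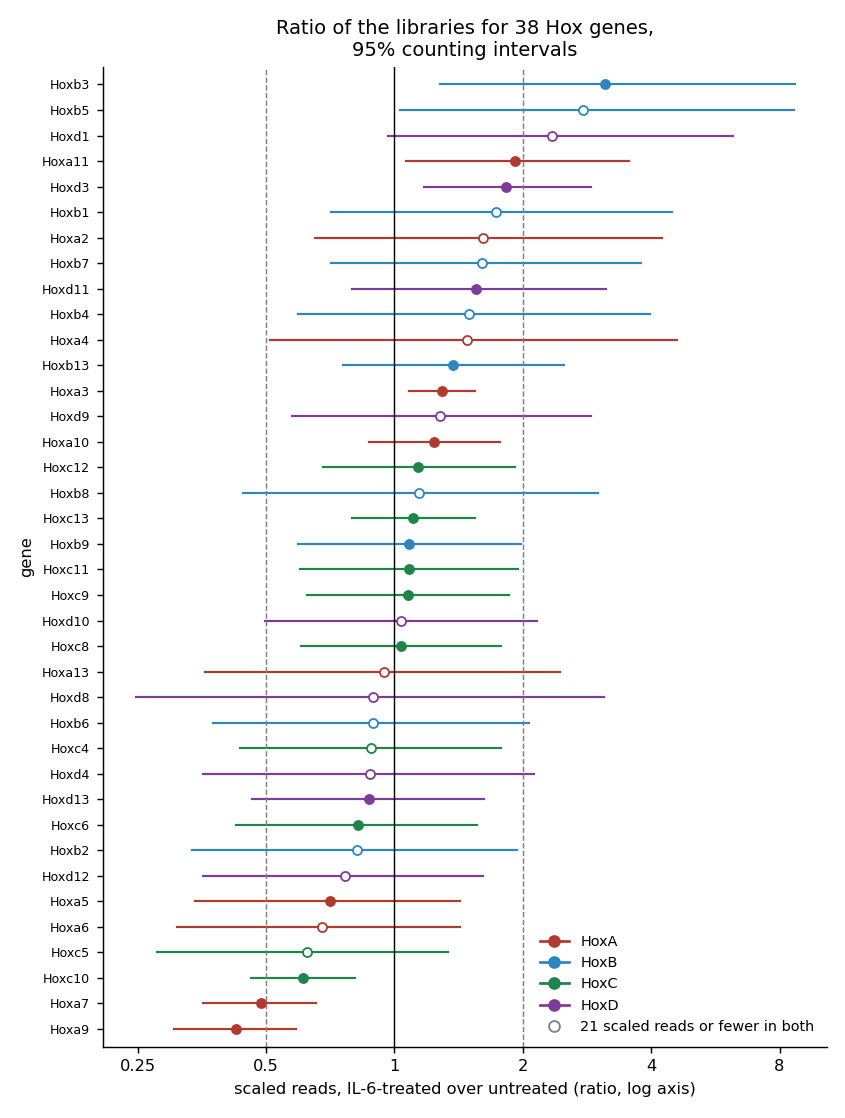
Ratio of scaled reads in IL-6-treated to untreated cells (horizontal log axis) for the 38 Hox genes (vertical axis, sorted), with 95% Clopper-Pearson intervals that cover counting error only and colors for the clusters. Filled points have more than 21 scaled reads in either library, dashed lines mark 2-fold, and with the deposited scaling the intervals of Hoxa7, Hoxa9 and Hoxc10 lie below 1, positions that the scaling from strong windows moves to positive log2 ratios.

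With the deposited scaling the summed ratio was above 1 for HoxB and HoxD, while those of HoxA and HoxC had intervals that included 1. The factor from strong windows raises each of these ratios alike. Over distinct windows HoxA had 629 reads in untreated and 545 in IL-6-treated cells, a ratio of 0.900 (0.801 to 1.01). HoxC had 394 and 330 reads on 40 windows, a ratio of 0.870 (0.749 to 1.01). HoxB had 126 and 170 reads on 38 windows, a ratio of 1.40 (1.11 to 1.78), and HoxD had 151 and 185 on 32 windows, a ratio of 1.27 (1.02 to 1.59). As shares of the reads on all 204 windows, which are free of the scaling, HoxA went from 48.4% (45.6 to 51.1) to 44.3% (41.5 to 47.1) and HoxB from 9.69% (8.14 to 11.4) to 13.8% (11.9 to 15.9). HoxC went from 30.3% (27.8 to 32.9) to 26.8% (24.4 to 29.4) and HoxD from 11.6% (9.92 to 13.5) to 15.0% (13.1 to 17.2). The intervals before and after were separate for HoxB and overlapped for HoxA, HoxC and HoxD. The median log2 ratios over genes were 0.12 for HoxA, 0.50 for HoxB, 0.05 for HoxC and 0.05 for HoxD, against 0.05 over all genes. Of the 10 genes of HoxB 8 had a positive log2 ratio, and the deciles of weak genes had positive medians too, with 0.40 in decile 2 and 0.32 in decile 3, where most HoxB genes lie.

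Position within a cluster was described by anterior (1 to 3), central (4 to 8) and posterior (9 to 13) genes. The 7 anterior genes had medians of 4.00 and 5.27 reads per window, the 15 central genes 4.67 and 4.15 and the 16 posterior genes 5.88 and 7.01. The median log2 ratio was 0.76 for anterior, -0.16 for central and 0.11 for posterior genes with the deposited scaling, and positive for each with the factor from strong windows. Of the anterior genes 6 had a positive log2 ratio, with Hoxb2 as the exception. Of the central genes 9 had a negative log2 ratio, and of the posterior genes 11 had a positive one. Over all 22605 genes 12615 had a positive and 9990 a negative log2 ratio. More than 21 scaled reads in either library were present for 3 anterior, 4 central and 12 posterior genes. HoxC has no anterior gene here, so position and cluster are mixed. By cluster the median log2 ratio of central genes was -0.52 in HoxA, 0.56 in HoxB, -0.22 in HoxC and -0.16 in HoxD. The paralogs did not share the strong signal. In paralog group 9 Hoxa9 had 33.0 reads per window in untreated cells, while Hoxc9 had 7.25, Hoxd9 had 4.33 and Hoxb9 had 4.00. In group 7 Hoxa7 had 19.9 and Hoxb7 had 2.2, and in group 10 Hoxc10 had 20.1, Hoxa10 had 5.17 and Hoxd10 had 4.25. Group 3 had positive log2 ratios in all 3 genes, as did group 11, and group 6 had negative ones in all 3, with the deposited scaling and the rows of most windows. These groups were picked for their shared sign. No gene of group 6 and only Hoxa11 of group 11 had an interval of the ratio that left out 1. All 3 genes of group 3 did, but the 4-window row of Hoxa3 had a log2 ratio of -0.05.

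The Hox windows were rich in GC and CpG and had little signal. Over their windows the Hox genes had a median GC content of 55% and 4.48 CpGs per 100 bases, against 45.6% and 1.2 over all genes. Across all 22605 genes GC content and signal in untreated cells went together, with a Spearman rho of 0.62, as a description across genes that differ in length and use. Across the 38 Hox genes rho was -0.36. Short genes outside the clusters with 4 to 6 CpGs per 100 bases had a median of 20.2 reads per window in untreated cells, over 488 genes. The 19 Hox genes of this class had a median of 4.67, and 1 of them, Hoxa9, was above 20.2. With 6 or more CpGs per 100 bases, 444 other genes had a median of 15.5 and 6 Hox genes had a median of 3.83, none above 4.33. With 2 to 4, 1712 other genes had a median of 13 and 13 Hox genes one of 5.50, and only Hoxc10 exceeded 13. The other genes have at most 6 windows, while the Hox side also includes Hoxa3, Hoxa7, Hoxa10, Hoxc10 and Hoxc13, whose rows touch more.

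**Figure D5:**
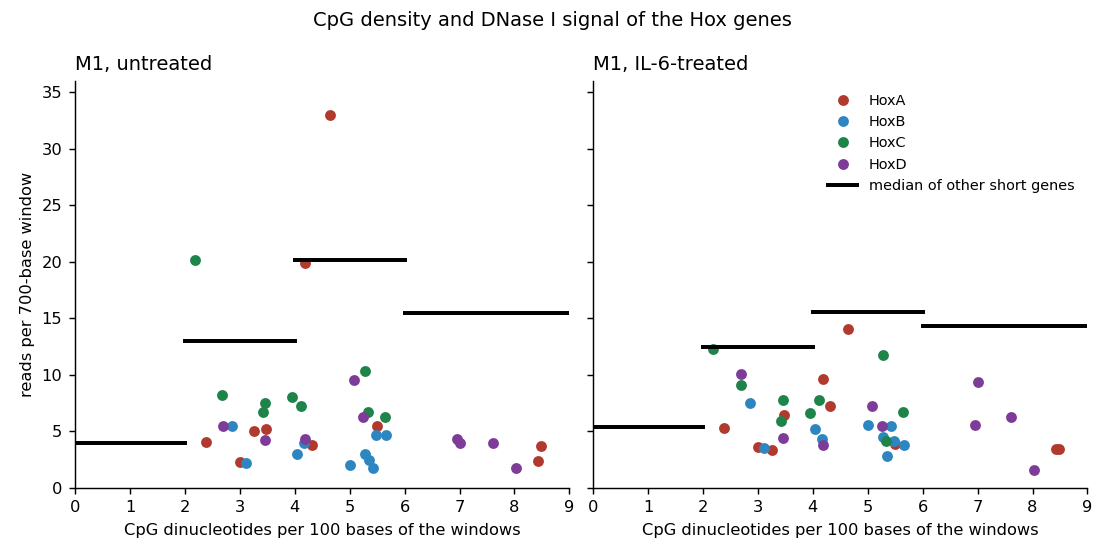
Reads per 700-base window (vertical axis) of each Hox gene in untreated (left) and IL-6-treated (right) cells against the CpG dinucleotides per 100 bases of its windows (horizontal axis), colored by cluster. Black bars are the medians of other genes of at most 6 windows in the same CpG class (20.2 reads per window in untreated cells for 4 to 6 CpGs), and nearly all Hox genes lie below them.

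Promoters were searched on both strands for the letters of known binding motifs, over the 250 bases before each start site. TGATNNAT, the core letters bound by Pbx and Hox proteins together, occurred in 8 of 71 Hox promoters and in 6.13% of all 45986 promoters. TGACAG, bound by Meis proteins, occurred in 5 Hox promoters and 15.1% of all, and GAGGAAGT, bound by PU.1, in 1 and 2.34%. CCAAT occurred in 39 Hox promoters and 32.8% of all, and TATAAA in 10 and 10.5%. None of these motifs contains another. The printed run of Hoxa4 held 1 match to the Meis letters. Many of the 71 promoters belong to transcripts of the same gene and overlap, and a match is only a description of the letters.

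The genes of the Hox cofactors differed in level. Their medians were 7.73 reads per window in untreated and 7.72 in IL-6-treated cells, against 7.75 and 8.14 over all genes. They ranged from 3.47 to 18.6 and from 4.47 to 12.7. Meis1, the cofactor of Hoxa9, had 977 reads in untreated and 933 in IL-6-treated cells on 197 windows, or 4.96 and 4.92 per window. Its ratio was 0.991 (0.905 to 1.09). Of 8 genes of the Meis, Pbx and Pknox families none was 2-fold lower or higher, against 13.4% and 1.71% of all genes with more than 21 scaled reads in either library. Pbx4 had an interval below 1, with 1063 and 674 reads (0.658, 0.597 to 0.726). Meis2 (1.43, 1.32 to 1.55), Pknox2 (1.5, 1.37 to 1.63) and Pbx3 (1.10, 1.01 to 1.19) had intervals above 1, where 28.9% of all genes with a read had one below and 25% one above.

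Among regulators of the clusters, the trithorax list around Mll1, which maintains Hox activity, had 0 of 10 genes past 2-fold, against the same 13.4% lower and 1.71% higher, with Men1, the menin gene, lowest (0.547, 0.434 to 0.686) and Mllt3 highest in log2 ratio (0.31). Mll1 itself had 1107 and 1144 reads (1.07, 0.987 to 1.17). Of 14 Polycomb genes 1 was at least 2-fold lower, where 13.4% of all genes were, Cbx8 with 383 and 81 reads (0.220, 0.171 to 0.280), and none was higher. Bmi1 had the highest log2 ratio of that list at 0.44, with 22 and 29 reads. Cbx8 had 95.8 reads per window in untreated cells and lies in the top decile, whose median log2 ratio is -1.32. Of 3 Cdx genes, which activate Hox genes in the embryo, Cdx2 had 124 and 182 reads (1.52, 1.21 to 1.93).

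The genes that flank HoxA had intervals of the ratio that included 1, while a strong span listed for each of HoxC and HoxD was lower. Skap2 and Hibadh, which flank HoxA with Evx1 and Tax1bp1, had 4.98 and 5.45 reads per window in untreated cells, and their ratios were 0.952 (0.873 to 1.04) and 0.981 (0.883 to 1.09). Evx1 had 33 and 42 reads and Tax1bp1 had 235 and 268, and none of these 4 genes had an interval that left out 1. Beside HoxB, Skap1 (1.28, 1.2 to 1.35) had an interval above 1, and Calcoco2, Ttll6 and Snx11 did not. Of the genes listed for HoxC, Hnrnpa1, which encodes an abundant RNA-binding protein, had 84.5 and 22.3 reads per window (0.264, 0.216 to 0.321). Hnrnpa1 starts at 103070945, with Smug1 and Cbx5 between it and HoxC, which ends at 102867274. The intervals of Calcoco1, Smug1 and Cbx5 included 1. Of those listed for HoxD, Hnrnpa3 had 32.4 and 6.11 reads per window (0.188, 0.138 to 0.253). Hnrnpa3 starts at 75497375, beyond Mtx2, while HoxD ends at 74603200. Mtx2 had a ratio of 0.783 (0.658 to 0.930), and Evx2 and Lnp had intervals that included 1. With the deposited scaling 1 of 4 listed genes each for HoxC and HoxD was at least 2-fold lower, against 13.4% of all genes. Both are strong spans that do not adjoin the cluster. Reference points with the same scaling were *c-myb* with 721 and 360 reads (0.518), Sfpi1, the gene of PU.1, with 1360 and 586 (0.447), and Gapdh, a housekeeping gene, with 436 and 99 (0.236).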

How the data were processed

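DHS-seq of M1 cells without and with IL-6 was analyzed, 1 library each. The authors digested nuclei with DNase I, sequenced single reads, trimmed them, aligned them to NCBIM37 (mm9) with BWA (version not given in the sources used here) and quantified them with Seqmonk. Handling of duplicate and multi-mapping reads and the window size are not given in the sources used here, and reads that fit both a gene and a paralog may be placed uncertainly. Per coding span, the deposited signal is the mean and SD of reads between windows. Windows of 700 bases tiled from the chromosome start gave the listed window number in 100% of 55432 rows. The mean times the windows was within 0.05 of a whole number of reads in 100% of rows in each library, at a read value of 1.04 in the IL-6 column. No count model was used, because 1 library per condition allows no test. Columns without a sample numbered 0.

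Genes are represented by the row with the most windows. Before a log2 ratio, 0.5 reads were added on both sides. Ratios and shares have 95% Clopper-Pearson intervals and means exact Poisson intervals. All cover counting error only, and a value of 0 reads would allow up to 3 reads. A gene counted as lower or higher from 2-fold, if more than 21 reads lay on it in either library, after the scaling in use. Reads of single windows were solved from sums and SDs of overlapping rows. Sequences were read from NCBIM37, with GENCODE M1 start sites. GC and CpG values cover whole windows. Spi1 was matched by its older symbol Sfpi1. All Hox genes could be named, and from the other lists the flanks, the Meis and Pbx genes, and the highest and lowest ratio. Pknox2, Mll1 and Cdx2 were chosen after their values were seen, as were Hoxa7, Hoxa9 and Hoxc10 as a group. Among the genes that meet the rule 1, and 2 genes of the other lists, are not reported here and are left out of the counts, sums and medians of the groups. The members and lists were chosen with earlier results of these data known. Alternatives covered the scaling, the row, the reads added, the filter and the fold. The steps were tested on simulated data. Tools were scipy 1.17.1, matplotlib 3.10.9, pandas 2.3.3 and numpy 2.4.6 under Python 3.11.15.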

Additional observations from a re-analysis of the deposited data

How the results depend on the processing

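Of 159 values under alternatives for 21 results, 112 stayed close to the value reported and 47 did not. Close meant within the counting interval for single genes and within 1.5 times for counts. For medians of clusters and positions it meant within a margin taken from the counting interval of the reads summed over the group. Of the 117 log2 values among them 15 changed sign and 2 became 0. The scaling mattered most. A factor from 186 spans of 1 window with at least 22 reads in both libraries, chosen after seeing the data, was 3.19 instead of 1.04. It raises the log2 ratio of every gene by 1.62, and shares over all genes with it were not counted. It gave 0 Hox genes with an interval below 1 and 34 above, 0 at least 2-fold lower and 33 higher, median log2 ratios of 1.74, 2.12, 1.68 and 1.68 for HoxA to HoxD and of 2.38, 1.46 and 1.73 for anterior, central and posterior genes, and log2 ratios of 0.58 for Hoxa7, 0.39 for Hoxa9 and 0.91 for Hoxc10. Relative to the decile of summed signal, 1 gene had an interval below and 1 above 1, 0 were 2-fold lower or higher, anterior genes had a median of 0.44, central genes of -0.41, and Hoxa9 was at 0.089, while the medians of HoxC, HoxD and posterior genes turned to -0.13, -0.21 and -0.03. With the row of fewest windows, 2 genes had an interval above 1, 0 were 2-fold higher, HoxA had a median of -0.23, HoxC of -0.08 and anterior genes of 0.49, and Hoxa3 was at -0.38. With rows of CCDS transcripts, chosen after seeing the data, Hoxa3 was at -0.054 and HoxA had a median of -0.066. Hoxa7, at -0.52 in those rows and in the rows of fewest windows, had an interval from 0.395 to 1.19. The 2 genes at least 2-fold lower became 1 with the row of fewest windows, with CCDS rows, with a scaling to total reads and with 5 reads added. Without scaling 4 genes, not 5, had an interval above 1. The 1 gene at least 2-fold higher became 0 without scaling, 3 with no filter on reads, 0 with more than 50 reads and 4 at 1.5-fold. Summed reads gave log2 ratios of -0.15 for HoxA and -0.20 for HoxC. Against the median of short spans 11 Hox genes, not 7, were above the line in untreated cells. Each of these changes follows from the scaling, rows, filter or windows that the alternative uses. No paired analysis was possible because no condition has more than 1 library, and for the same reason no library could be left out. Depth limits the weak genes: 19 of 38 Hox genes had 21 scaled reads or fewer in both libraries, so small differences were not detectable there.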

Other observations

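Families of developmental transcription factors outside the clusters had more signal than the Hox genes. The 42 genes named Fox and a letter and number, forkhead factors, had a median of 7.90 reads per window in untreated and 9.08 in IL-6-treated cells, with 21 genes above the median of all genes in untreated cells. The 18 Sox genes, which share an HMG box, had medians of 8.02 and 9.65, with 9 above it. The Hox medians were 4.67 and 5.49. With the deposited scaling 2 Fox genes were at least 2-fold lower and 2 higher among 34 with more than 21 scaled reads in either library, against 13.4% and 1.71% of all genes. The lowest was Foxr1, with 348 and 137 reads (0.409, 0.333 to 0.499), and the highest was Foxi3, with 28 and 63 reads (2.34, 1.47 to 3.79). Of the 18 Sox genes 15 had a positive log2 ratio with the deposited scaling. The 1 Sox gene at least 2-fold lower was Sox4, with 114 and 45 reads (0.410, 0.284 to 0.583), and the 1 at least 2-fold higher was Sox21, with 17 and 37 reads (2.26, 1.24 to 4.28). Both families include several spans as short as those of the Hox genes, and their base composition was not matched to them.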
